A study of Mus musculus with 6 samples.

Results

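The genes described here carry out glycolysis, move glucose and lactate across the cell membrane, or belong to the hypoxia-inducible factor (HIF) pathway. They were chosen by name from a list of 34 genes, and 31 had a named row among the 25206 rows of the deposited array table, each row standing for 1 Entrez gene. Gapdh, Eno1 and Gpi1 were not analysed here. A row with the Entrez number of Gpi1 is in the table, but the array annotation used here does not list that row, so it was left unnamed. Ero1l is listed as Ero1a in current RefSeq tables and is called Ero1l here. The rule used names, with no threshold on a measured value, but the list was chosen with earlier results of these data known.

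The cells were lines of mouse group 2 innate lymphoid cells (ILC2s), lymphocytes of tissues that lack T and B cell receptors and make type 2 cytokines when IL-33 reaches them. The lines came from the C57BL/6J strain and grew with IL-2 plus IL-33, 10 ng/ml, in both groups alike. The control group received a lentiviral CRISPR construct (LentiV2CRISPRGFP) with a non-target guide, and the knockout group received the same construct with a guide against Cbfb. In both groups transduced cells were isolated on day 6 by sorting for GFP, and each group had 3 arrays. Cbfb encodes core-binding factor beta, which stabilises RUNX transcription factors on DNA, and the comparison asks what its loss does to expression in stimulated ILC2s. The labels describe sorted populations, and give neither the number of lines, nor any cloning, nor whether the 3 samples of a group were separate cultures. The p-values therefore rest on the spread between the 3 samples of each group, and that spread may be technical. In bulk RNA, fewer cells of a type and less RNA per cell cannot be told apart.

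All values are log2 expression values, so a difference of 1 is a doubling or a halving of signal. Array medians lay between 3.57 and 3.63, no arrays were identical, and arrays correlated across rows with Pearson's r of 0.9946 to 0.996 inside a group and 0.988 to 0.9908 across groups. Cbfb itself read 8.53, 8.73 and 8.70 in control and 7.88, 7.69 and 7.91 in knockout, a difference of -0.83 (limma adjusted p = 0.00205). Neither editing nor protein was measured. The 9 measured of 11 ILC2 markers averaged 10.89 to 10.93 per control array and 10.64 to 10.68 per knockout array, and Icos, Il7r, Id2 and Il5 among them fell. Marker lists of T cells (3.74 to 3.83 in control, 3.57 to 3.70 in knockout), B cells (2.30 to 2.40 and 2.38 to 2.54), monocytes and macrophages (3.41 to 3.50 and 3.29 to 3.57), mast cells and basophils (3.39 to 3.52 and 2.83 to 3.11) and erythroid cells (2.26 to 2.53 and 2.42 to 2.57) averaged under 3.84 on all arrays. Stromal and endothelial markers averaged 4.75 to 4.84 and 4.60 to 4.83. These averages hide higher single genes, among them Pecam1, Cpa3, Cd68 and Trac, with control means of 10.92, 6.87, 5.87 and 5.68. Trac (-0.61), Cpa3 (-2.91) and Pecam1 (-0.31) fell and no other gene of these lists passed the test. Of 9 S and M phase genes Rrm2 (-0.47) and Tyms (-0.31) fell and Plk1 (0.34) rose, and the list averaged 8.93 to 8.99 in control and 8.75 to 8.83 in knockout. The part of these markers in the results below was not tested.

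Glycolysis splits glucose into pyruvate in the cytosol. Glucose enters through facilitative transporters, hexokinase traps it as a phosphate ester, and phosphofructokinase commits it to breakdown. Lactate dehydrogenase turns pyruvate into lactate, which leaves through monocarboxylate transporters. When oxygen is scarce, the prolyl hydroxylases encoded by the Egln genes no longer mark HIF-1α for VHL-dependent destruction. HIF-1α then pairs with ARNT and raises transcription of many of these same enzymes and transporters. In activated lymphocytes HIF-1α also responds to receptor and cytokine signals at normal oxygen.

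Of the 31 measured members 10 fell, 2 rose and 19 did not pass the test in the knockout. The genes with the largest falls were Hk2 (-1.36), Slc16a3 (-1.18), Bnip3 (-0.99) and Hif1a (-0.77), with 38.9%, 44.1%, 50.2% and 58.6% of the control signal left. Slc2a3, Pfkl, Tpi1, Vegfa, Pfkp and Slc16a1 fell by less, between 0.36 and 0.49 on the log2 scale, and Ldhb (0.64) and Arnt (0.35) rose. The members called lower were 32.3% of those measured, against 4.24% of all rows tested, and those called higher were 6.45%, against 5.51% of all rows (9.75% of all rows in either direction). Among rows above the median row mean alone, refitted by themselves, 11 of 29 members were lower against 12.4% of rows, and 2 were higher against 15.5%. The members' median difference was -0.12, against -0.01 over all rows. Since the list was chosen with earlier results of these data known, these shares describe it and do not test it. Control and knockout arrays were fully separated for 11 members that read lower in the knockout and 5 that read higher, as they were for 13.4% and 14.1% of all rows in those directions (27.5% in either). Tests were moderated two-sided limma tests of knockout against control, with p-values adjusted by Benjamini-Hochberg over all 25206 rows and a threshold of 0.05. The number of falls was 8 without control replicate 1, 4 when control replicate 2 was dropped and 5 when control replicate 3 was. Dropping knockout replicate 1, 2 or 3 gave 4, 5 and 4 falls. Hk2, Slc16a3, Hif1a and Bnip3 stayed past the threshold in every one of the 13 alternatives run, and the other 8 calls were each lost in at least 4 of them.

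**Figure D1:**
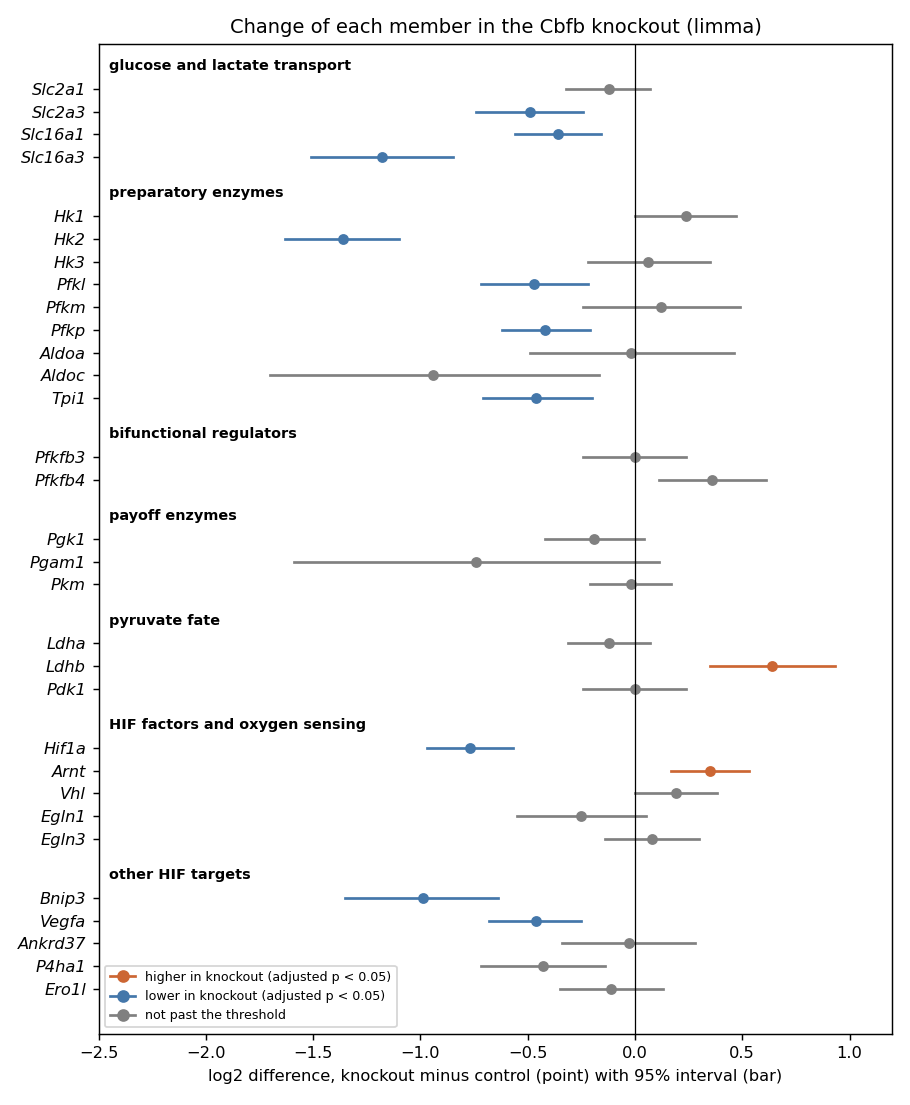
Each point is the log2 difference of a gene, knockout minus control (x axis), with its 95% interval as a bar, grouped by role along the y axis. Blue genes fell and orange genes rose in the limma test. Hk2 (-1.36) and Slc16a3 (-1.18) lie farthest to the left, and Ldhb (0.64) farthest to the right.

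The promoters of the 4 genes with the largest falls and of the 2 genes that rose are shown because HIF-1α with ARNT binds DNA at the core word ACGTG or its variant GCGTG, and RUNX proteins at TGTGGT or the related word TGCGGT. Each sequence is the 250 bases upstream of the RefSeq start site (GRCm38.p6), 5′ to 3′ along the gene's strand. Capitals mark any match on either strand to these words or to the E-box word CACGTG.
Hk2 (chr6:82774455-82774704, strand -): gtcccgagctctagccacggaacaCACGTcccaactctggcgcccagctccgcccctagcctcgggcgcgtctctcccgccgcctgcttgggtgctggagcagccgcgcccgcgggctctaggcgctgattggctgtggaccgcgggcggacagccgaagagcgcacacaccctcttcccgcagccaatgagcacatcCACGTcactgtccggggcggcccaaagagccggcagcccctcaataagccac
Slc16a3 (chr11:120948817-120949066, strand +): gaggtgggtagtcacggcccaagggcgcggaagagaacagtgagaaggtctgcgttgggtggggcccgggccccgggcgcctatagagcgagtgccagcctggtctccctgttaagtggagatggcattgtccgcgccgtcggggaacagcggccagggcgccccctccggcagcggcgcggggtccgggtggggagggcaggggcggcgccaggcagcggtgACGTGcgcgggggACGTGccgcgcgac
Bnip3 (chr7:138909507-138909756, strand -): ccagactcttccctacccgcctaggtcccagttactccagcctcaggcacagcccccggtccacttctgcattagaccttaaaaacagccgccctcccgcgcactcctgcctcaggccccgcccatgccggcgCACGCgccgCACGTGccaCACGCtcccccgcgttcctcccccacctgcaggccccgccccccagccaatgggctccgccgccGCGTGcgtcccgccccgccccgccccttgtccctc
Hif1a (chr12:73907617-73907866, strand +): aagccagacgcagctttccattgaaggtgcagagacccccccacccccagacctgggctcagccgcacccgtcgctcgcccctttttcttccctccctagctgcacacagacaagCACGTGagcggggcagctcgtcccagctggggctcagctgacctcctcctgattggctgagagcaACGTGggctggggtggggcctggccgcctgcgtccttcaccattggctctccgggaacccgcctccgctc
Ldhb (chr6:142507958-142508207, strand -): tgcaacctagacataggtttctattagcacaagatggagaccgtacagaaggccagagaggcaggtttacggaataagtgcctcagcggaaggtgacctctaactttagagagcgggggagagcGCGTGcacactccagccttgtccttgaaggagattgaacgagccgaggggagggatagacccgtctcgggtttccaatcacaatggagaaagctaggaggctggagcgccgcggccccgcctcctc
Arnt (chr3:95434140-95434389, strand +): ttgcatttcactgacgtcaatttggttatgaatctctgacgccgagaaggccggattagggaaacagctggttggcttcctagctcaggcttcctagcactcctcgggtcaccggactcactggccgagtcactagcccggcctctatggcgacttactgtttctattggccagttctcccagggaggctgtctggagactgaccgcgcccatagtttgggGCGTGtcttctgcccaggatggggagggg
The windows of Hk2 and Slc16a3 each held ACGTG at 2 places. In those of Bnip3 and Hif1a ACGTG lay inside the E-box word CACGTG, which reads the same on both strands and so counts as 2 overlapping matches, and Hif1a had 1 further ACGTG. Ldhb and Arnt held no ACGTG and 1 GCGTG each. Bnip3 held GCGTG at 3 places, and Hk2, Slc16a3 and Hif1a held none. None of these 6 windows held TGTGGT or TGCGGT.

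Of the 31 members 30 matched the promoter table, Slc2a3 being the exception. ACGTG stood upstream of 20 of those 30 genes (66.7%, against 18.5% of the 27025 genes in the table), and GCGTG upstream of 20 (66.7%, against 30.9%). The E-box word CACGTG stood upstream of 6 (20%, against 6.86%), TGTGGT upstream of 6 (20%, against 15.9%) and TGCGGT upstream of none (0 of 30, against 5.84%). A gene counted if any of its windows held the word. Per window, TGTGGT was in 14.3% of the members' 42 windows and 14.0% of all windows, and ACGTG in 54.8% and 16.6%. Among the 9 genes that fell and had a window, ACGTG was found for 6 (66.7%), GCGTG for 5 (55.6%), CACGTG for 3 (33.3%), TGTGGT for 1 (11.1%) and TGCGGT for none. Pfkl, Pfkp and Tpi1 fell and held no ACGTG. The members' windows held a median of 14 CG pairs and all windows a median of 6, and every word searched except TGTGGT contains such a pair. A match is a run of letters and not a measured binding site.

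Of the 4 measured transport genes 3 fell (75%, against 4.24% of all rows) and none rose, with a median difference of -0.43. Slc16a3 encodes MCT4, the monocarboxylate transporter that exports lactate from glycolytic cells. Its values were 7.89, 8.36 and 8.25 in control and 6.90, 7.18 and 6.88 in knockout. Every knockout array was below every control array. The group means were 8.17 ± 0.246 and 6.99 ± 0.168 (SD, n = 3). The fall was 2.27-fold, with a standard error of 0.142 on the log2 scale (limma adjusted p = 0.00209). Slc2a3 encodes GLUT3, a high-affinity glucose transporter. It read 9.74, 10.03 and 10.03 in control and 9.34, 9.49 and 9.50 in knockout, without overlap (difference -0.49, limma adjusted p = 0.0255). Slc16a1, which encodes the lactate and pyruvate transporter MCT1, read 8.64, 8.71 and 8.65 in control and 8.38, 8.35 and 8.19 in knockout (difference -0.36, limma adjusted p = 0.0369). Slc2a1, the gene of the widely expressed glucose transporter GLUT1, read 9.36, 9.30 and 9.16 in control and 9.14, 9.17 and 9.14 in knockout. Its groups overlapped, and the difference of -0.12 had a 95% interval of -0.32 to 0.07 (limma adjusted p = 0.467). Slc2a3 kept its call without control replicate 1 (limma adjusted p = 0.0168) and lost it without any of the other 5 arrays (0.0589 to 0.0974), and Slc16a1 lost it without any 1 of the 6 (0.0582 to 0.127).

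**Figure D2:**
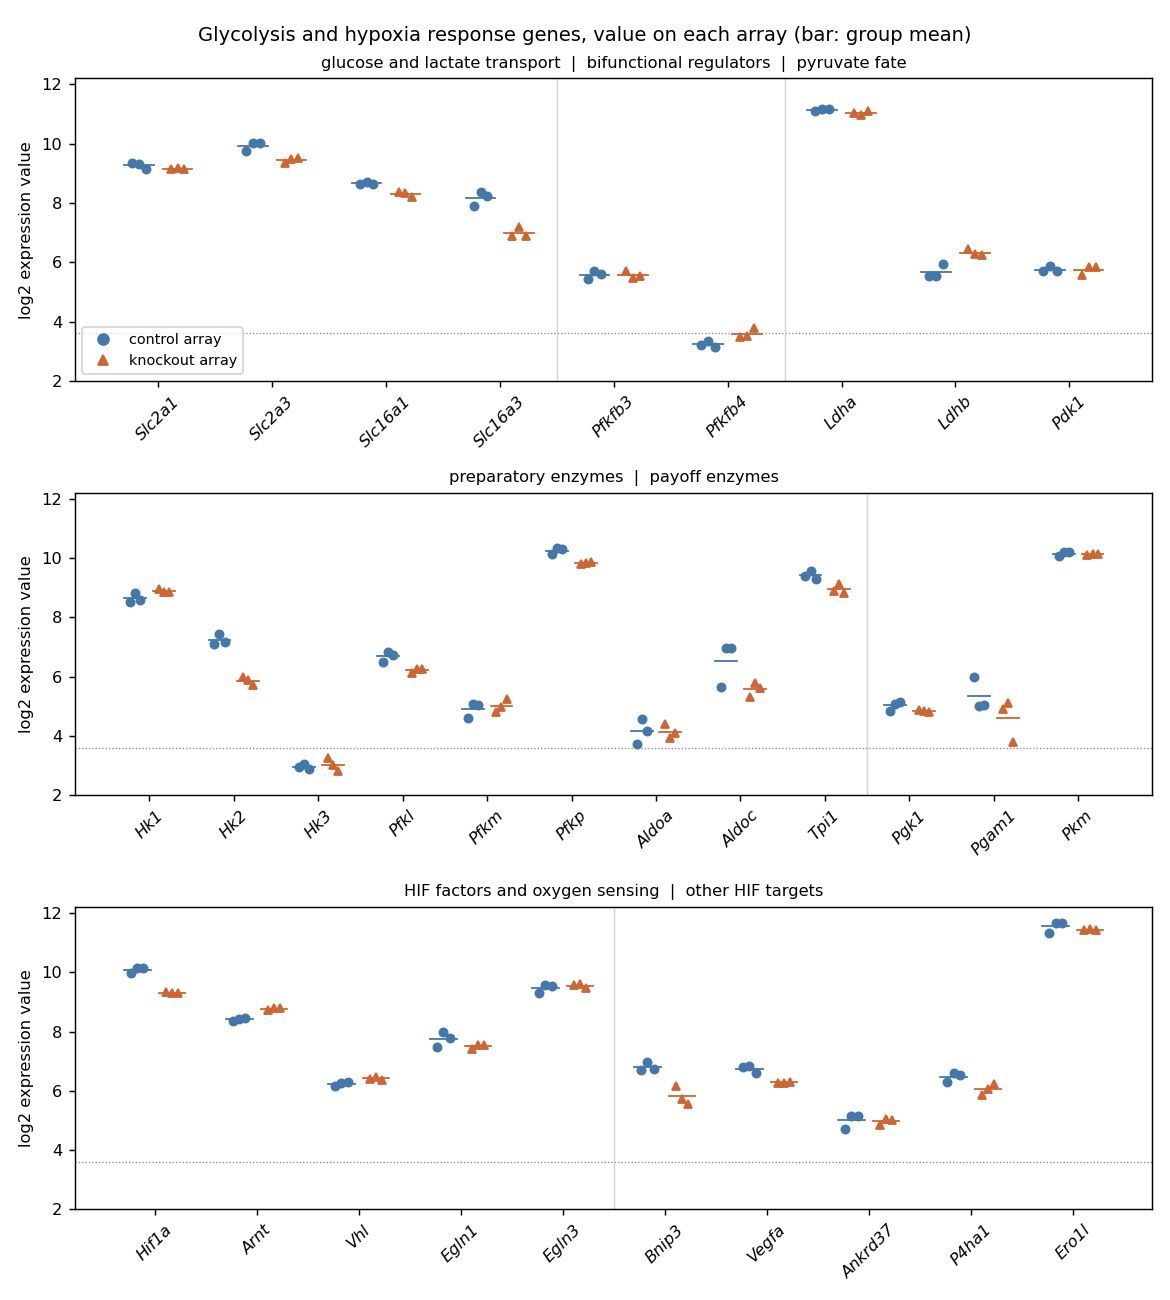
Log2 expression values (y axis) of the 31 measured members on each array, with control arrays as circles, knockout arrays as triangles, group means as short bars and the median of all group means (3.6) as a dotted line. Hk2, Slc16a3, Bnip3 and Hif1a show knockout triangles clear below the control circles, while Ldha, Pkm and Ero1l sit above 10 in both groups.

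The preparatory enzymes, which take glucose to triose phosphates, had 4 falls, no rise and 5 members that did not pass among 9 measured (median -0.42). The falls were 44.4% of these genes, against 4.24% of all rows. Hk2 encodes the inducible hexokinase of activated and proliferating cells. It read 7.10, 7.42 and 7.16 in control and 5.98, 5.89 and 5.72 in knockout, so that the groups lay more than their own ranges apart. The means were 7.23 ± 0.17 and 5.86 ± 0.132 (SD, n = 3), a 2.57-fold fall with a standard error of 0.115 on the log2 scale (limma adjusted p = 0.000472). Hk1, the constitutive hexokinase gene, read 8.53, 8.83 and 8.58 in control and 8.94, 8.85 and 8.86 in knockout. The knockout arrays were just above the control arrays, but the difference of 0.24 did not pass (limma adjusted p = 0.208). Hk3, a hexokinase gene mainly of myeloid cells, read 2.97 and 3.03 as group means, under the median of all group means (3.6), where background can hide a difference.

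Phosphofructokinase has liver, platelet and muscle type subunits, encoded by Pfkl, Pfkp and Pfkm. Pfkl read 6.50, 6.83 and 6.73 in control and 6.12, 6.26 and 6.27 in knockout (difference -0.47, limma adjusted p = 0.0297). Pfkp read 10.12, 10.32 and 10.31 in control and 9.81, 9.83 and 9.86 in knockout (difference -0.42, limma adjusted p = 0.022). Neither gene's groups overlapped. Pfkm read 4.59, 5.07 and 5.03 in control and 4.82, 4.98 and 5.26 in knockout, with overlap (difference 0.12, 95% interval -0.24 to 0.49). Tpi1, the gene of triosephosphate isomerase, fell from 9.39, 9.55 and 9.29 to 8.90, 9.13 and 8.83 (difference -0.46, limma adjusted p = 0.0392). Pfkl and Pfkp kept their calls without control replicate 1 (limma adjusted p = 0.0204 and 0.0211) and lost them without any of the other 5 arrays. Tpi1 kept its call without knockout replicate 2 (0.0362) and lost it without any of the other 5.

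The aldolase genes, whose enzymes cleave fructose 1,6-bisphosphate, varied within groups. Aldoc read 5.64, 6.95 and 6.96 in control and 5.32, 5.79 and 5.63 in knockout. Control replicate 1 lay among the knockout arrays and 1.31 below the next control, and the difference of -0.94 did not pass (limma adjusted p = 0.131). Without control replicate 1 the difference was -1.38 and passed (limma adjusted p = 0.00493). Aldoa ranged from 3.74 to 4.56 in control and from 3.92 to 4.40 in knockout (difference -0.02, 95% interval -0.49 to 0.46). The genes of the bifunctional enzymes that set fructose 2,6-bisphosphate, an activator of phosphofructokinase, did not pass either. Pfkfb3 read 5.57 ± 0.137 and 5.57 ± 0.118 (SD, n = 3; 95% interval of the difference -0.24 to 0.24). Pfkfb4 read 3.20, 3.33 and 3.16 in control and 3.47, 3.52 and 3.78 in knockout, without overlap and near the median of all group means (difference 0.36, limma adjusted p = 0.0774).

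The payoff enzymes take triose phosphates to pyruvate and yield ATP. None passed the limma test among the 3 measured of 5 listed, and none had an unadjusted p under 0.05, which does not show them unchanged. The group means of Pgk1 (5.03 and 4.84) and Pgam1 (5.34 and 4.60) lay far below those of Pkm (10.14 and 10.12). Their signal over background is unknown. Pkm, the pyruvate kinase gene, read 10.05, 10.19 and 10.19 in control and 10.09, 10.12 and 10.15 in knockout (difference -0.02, 95% interval -0.21 to 0.17). Pgk1, the phosphoglycerate kinase gene, read 4.85, 5.09 and 5.15 in control and 4.88, 4.84 and 4.81 in knockout (difference -0.19, limma adjusted p = 0.323). Pgam1, the phosphoglycerate mutase gene, read 5.97, 5.0 and 5.04 in control and 4.89, 5.11 and 3.80 in knockout. Control replicate 1 was the highest and knockout replicate 3 the lowest of the 6, and the difference of -0.74 (limma adjusted p = 0.29) was -0.42 without that control array and -0.34 without that knockout array. Several glycolytic enzyme genes, Pgk1, Pgam1, Aldoa and Ldha among them, have processed pseudogenes or close relatives, and these values do not separate their transcripts.

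At the pyruvate branch 1 of 3 measured genes rose (33.3%, against 5.51% of all rows) and none fell. Ldhb, which encodes the heart type subunit, rose from 5.55, 5.55 and 5.95 to 6.44, 6.29 and 6.24. Its lowest knockout array stood above its highest control array, with a 1.56-fold rise (difference 0.64, standard error 0.127, limma adjusted p = 0.0174). Ldha, which encodes the muscle type subunit favoured in glycolytic cells, read 11.10, 11.17 and 11.17 in control and 11.02, 10.96 and 11.11 in knockout. The difference of -0.12 did not pass (95% interval -0.31 to 0.07). The level lay in the upper range of the arrays but below their maxima (12.43 to 12.51), and Ero1l read higher still (11.55 and 11.44). Whether such probes neared saturation was not tested. Pdk1, which encodes a kinase that shuts pyruvate dehydrogenase, read 5.70, 5.87 and 5.70 in control and 5.58, 5.84 and 5.84 in knockout (95% interval -0.24 to 0.24). Ldhb lost its call without control replicate 1, control replicate 2, knockout replicate 1 or knockout replicate 2 (limma adjusted p 0.0511 to 0.0694).

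The HIF subunits moved in opposite directions. Hif1a, the oxygen-regulated subunit, read 9.96, 10.16 and 10.13 in control and 9.34, 9.30 and 9.30 in knockout. The knockout arrays differed among themselves by 0.04 and lay 0.77 below the control mean (standard error 0.0867, limma adjusted p = 0.00158). Arnt, its constitutive partner, read 8.37, 8.42 and 8.46 in control and 8.73, 8.78 and 8.80 in knockout, a rise of 0.35 (limma adjusted p = 0.0264) that was lost without any 1 of the 6 arrays (0.0556 to 0.0896). Of the oxygen-sensing genes none passed. Vhl, which encodes the substrate receptor that delivers HIF-1α for destruction, read 6.15, 6.26 and 6.29 in control and 6.40, 6.48 and 6.38 in knockout (difference 0.19, limma adjusted p = 0.228). Egln1, the main prolyl hydroxylase gene, ranged from 7.49 to 7.98 in control and from 7.41 to 7.56 in knockout (difference -0.25, limma adjusted p = 0.306). Egln3, a hydroxylase gene that HIF itself induces, read 9.47 ± 0.137 and 9.55 ± 0.0757 (SD, n = 3; 95% interval of the difference -0.14 to 0.30).

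All 5 other HIF targets read lower in the knockout on average, as did 12970 of all 25206 rows. Of the 5, 2 fell (40%, against 4.24% of all rows), and the list's median was -0.43. Bnip3 encodes a mitochondrial protein of mitophagy and cell death. It read 6.70, 6.98 and 6.75 in control and 6.15, 5.73 and 5.57 in knockout, a 1.99-fold fall with a standard error of 0.155 on the log2 scale (limma adjusted p = 0.00657). Its knockout arrays spread over 0.58 but all lay below the lowest control. Vegfa, the gene of a growth factor for blood vessels, fell from 6.81, 6.84 and 6.59 to 6.26, 6.28 and 6.31 (difference -0.46, limma adjusted p = 0.0183). P4ha1, a collagen prolyl hydroxylase gene, read 6.31, 6.60 and 6.52 in control and 5.85, 6.05 and 6.24 in knockout. Its groups did not overlap, and the difference of -0.43 did not pass (limma adjusted p = 0.0716; 0.0287 to 0.212 over the 13 alternatives, of which 4 passed). Ankrd37, a small ankyrin repeat gene, read 5.0 ± 0.245 and 4.97 ± 0.116 (95% interval of the difference -0.34 to 0.28). Ero1l, which encodes an oxidase for disulfide formation in the endoplasmic reticulum, read 11.34, 11.65 and 11.65 in control and 11.43, 11.46 and 11.42 in knockout (95% interval -0.35 to 0.13). Vegfa kept its call without control replicate 3 (limma adjusted p = 0.0195) and lost it without any of the other 5 arrays (0.0514 to 0.0767).

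A call for one gene and none for its relative does not show that they differ. As a description, 6 pairs of genes picked after their values were seen were set side by side within arrays. The log2 difference Hk2 minus Hk1 went from -1.42 ± 0.010 in control to -3.02 ± 0.104 in knockout (SD, n = 3), a shift of -1.6 (exact permutation test, two-sided, p = 0.1). Hif1a minus Arnt shifted by -1.12, Hif1a minus Epas1 by -1.20 and Ldhb minus Ldha by 0.76. Pfkl minus Pfkm shifted by -0.59 and Slc2a3 minus Slc2a1 by -0.37. Each pair had p = 0.1, raw and adjusted over the 6 pairs, the smallest an exact permutation test can give with 3 arrays against 3. The pairs were picked for these differences and the test cannot pass 0.05, so it cannot decide whether related genes responded unequally. In the limma test over all rows Hif1a fell while Arnt and Epas1 rose.

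Within the control group, replicate 1 stood lower for most members. It was the lowest of the 3 controls for 23 of 31 members (74.2%), against 33.6% of all rows, while control replicate 2 was the lowest for 1 member and control replicate 3 for 5, and Ldhb and Pdk1 had ties. The median deviation of the members from the control mean was -0.13 in replicate 1, 0.10 in replicate 2 and 0.04 in replicate 3, and over all rows it was 0.01, 0 and 0. All 5 HIF and oxygen-sensing genes and 7 of 9 preparatory enzymes were lowest there, and Aldoc, with control replicate 1 at 5.64 and the others at 6.95 and 6.96, had the widest gap. Slc2a1, Tpi1, Vegfa, Hk3, Pfkfb4 and Pgam1 were exceptions, in which another control was lower. The knockout arrays lay close together, at median differences from the control mean of -0.16, -0.19 and -0.17.

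**Figure D3:**
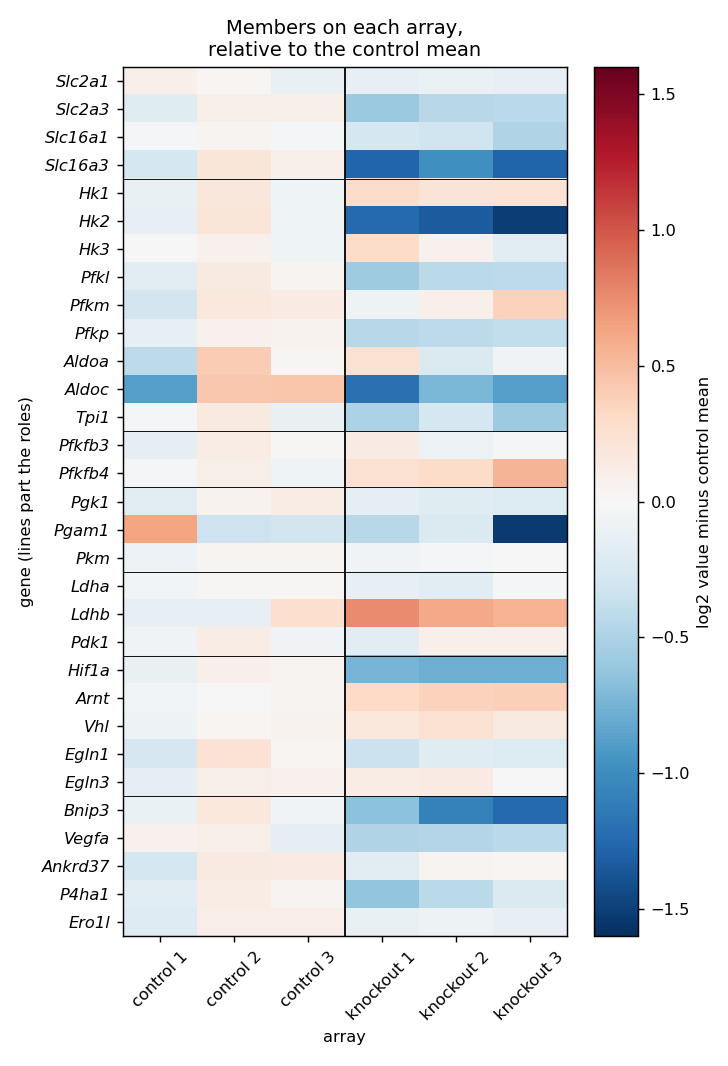
Each row is a gene and each column an array, and the colour is the log2 value minus the control mean (blue lower, red higher), with lines between the roles. Control replicate 1 is bluer than the other controls for most genes, and Hk2, Slc16a3, Bnip3 and Hif1a are blue on all 3 knockout arrays.

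Related lists placed these changes beside the rest of glucose metabolism and oxygen sensing. Of rows above the median row mean, refitted by themselves, 12.4% were lower and 15.5% higher. The related lists were not counted in that refit. Of 18 other glycolysis isozymes and regulators, Eno2 rose (5.56%, against 5.51% of all rows) and Pgm1 and Pgm2 fell (11.1%, against 4.24%), with a median of -0.02. Eno2, the enolase gene best known from neurons, read 4.64, 4.54 and 4.65 in control and 5.74, 5.76 and 5.75 in knockout, a 2.20-fold rise (limma adjusted p = 0.000193). Pgm1 (-0.42, limma adjusted p = 0.0215) and Pgm2 (-0.35, limma adjusted p = 0.0282) belong to the phosphoglucomutase family, whose enzymes interconvert sugar phosphates. Pgm1 kept its call without control replicate 1 (0.0224) and lost it without any of the other 5 arrays (limma adjusted p 0.0561 to 0.0883), and Pgm2 lost it without any 1 of the 6 (0.0526 to 0.11). Pfkfb2, another bifunctional enzyme gene, read 5.01 and 5.34 as group means (limma adjusted p = 0.106). Of 10 pentose phosphate pathway genes, Prps1, which makes the ribose donor for nucleotides, fell by 0.65 (limma adjusted p = 0.0116), as the 1 call of the list (10%, against 4.24% of all rows lower). Its relative Prps2 (-0.41), the isomerase gene Rpia (-0.27) and the transketolase gene Tkt (-0.26) did not pass (limma adjusted p 0.0544 to 0.0927), and the list's median was -0.19. None of 12 measured genes of pyruvate dehydrogenase and pyruvate entry passed the limma test, with 5 at an unadjusted p under 0.05 and a median of -0.07. The 4 with the smallest p were the phosphatase gene Pdp1 (-0.50), the subunit genes Pdhx (0.44) and Pdha1 (-0.27) and the kinase gene Pdk2 (0.56).

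Among 15 other HIF pathway factors 2 rose and 2 fell, 13.3% in each direction against 5.51% and 4.24% of all rows (median 0.14). Among rows above the median row mean, where most of these genes lie, 12.4% were called lower and 15.5% higher in the refit. Epas1, which encodes HIF-2α, rose from 9.66, 9.38 and 9.51 to 9.94, 9.98 and 9.93 (difference 0.43, limma adjusted p = 0.025). Hif3a, which encodes a further α subunit, rose from a mean of 3.97 to 4.79 (limma adjusted p = 0.0134). Eloc, which encodes an elongin of the VHL ubiquitin ligase, fell by 0.64 (limma adjusted p = 0.00881). Siah2, the gene of a ubiquitin ligase that acts on prolyl hydroxylases, fell by 0.50 (limma adjusted p = 0.0103). Epas1 kept its call without control replicate 1 (0.0228) and lost it without any of the other 5 arrays. Hif3a lost it without control replicate 3 (0.0503) or knockout replicate 2 (0.0508).

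Of 29 other genes known to be induced by hypoxia, 7 fell (24.1%, against 4.24% of all rows), 5 rose (17.2%, against 5.51%) and 17 did not pass, with a median of -0.19. Car12, a membrane carbonic anhydrase gene, read 6.41, 6.39 and 6.29 in control and 5.50, 5.52 and 5.35 in knockout (difference -0.91, limma adjusted p = 0.00078). Ndrg1, a stress-responsive gene, fell by 0.88 from a mean of 8.64 (limma adjusted p = 0.00312). In the other direction Ddit4, which encodes the mTORC1 inhibitor REDD1, rose from 5.93, 5.89 and 5.94 to 6.71, 6.81 and 6.91 (1.85-fold, limma adjusted p = 0.000766), and Zfp395, a zinc finger gene, rose by 0.62. Among 22 upstream regulators 4 fell (18.2%, against 4.24% of all rows) and 3 rose (13.6%, against 5.51%), with a median of -0.06. Most genes of the hypoxia and upstream lists lie above the median row mean, where the refit called 12.4% of rows lower and 15.5% higher. Irf4, a transcription factor gene of activated lymphocytes, fell from 9.62, 9.68 and 9.68 to 8.46, 8.30 and 8.2 (2.53-fold, limma adjusted p = 0.000194). Rictor, an mTORC2 subunit gene, fell by 0.62 (limma adjusted p = 0.00356), while the mTORC1 subunit gene Rptor rose by 0.58 (limma adjusted p = 0.00538). Prkaa1, the gene of a catalytic subunit of the energy sensor AMPK, rose by 0.52 (limma adjusted p = 0.00675).

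**Figure D4:**
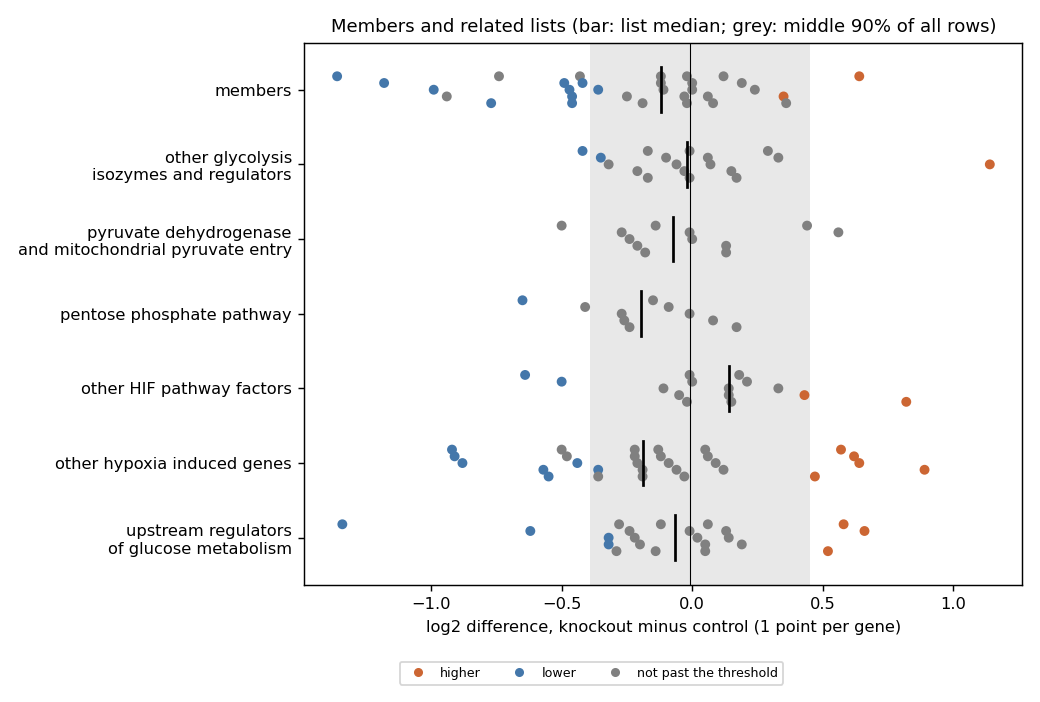
Log2 difference, knockout minus control (x axis), of each measured gene in the members and in 6 related lists (y axis), with list medians as bars, the median of all rows as a thin line and the middle 90% of all rows (-0.39 to 0.45) in grey. The members' falls extend farther left than their rises to the right, and the hypoxia induced genes spread to both sides.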

How the data were processed

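Trizol-extracted total RNA with a biotin label was measured on arrays of 1 colour, per the labels' protocols. The deposited table holds log2 expression values, with the scale read from the values (0.66 to 12.51). RMA and limma 3.14.4 appear in the submitters' processing notes, without role or order. RMA equalises array distributions, which hides a shift common to the whole transcriptome, and compresses differences near background. The values carry no detection calls. Of 25206 rows 23185 had 1 gene symbol, matched through the Entrez number to RefSeq (GRCm38.p6), and 2021 had none. A symbol that RefSeq gives to another gene was never matched as a synonym.

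All rows were tested together with limma 3.58.1 (R 4.3.3), with a default prior and 1 coefficient for the genotype. Every member was named, with the 4 genes of smallest p from each of 6 related lists. The members and lists were chosen with earlier results of these data known. In a simulation of 25206 rows, 67, 67 and 66 rows carried log2 changes of 0.5, 1 and 2, with residual SDs shuffled among rows. On these simulated data the test recovered 31.3% of log2 changes of 0.5, 79.1% of 1 and 98.5% of 2, with 5 false among 144 calls. The real fit called 2457 rows, so these shares are not its sensitivity. The test can miss changes of this size, and a gene that did not pass is not shown to be unchanged. As 13 alternatives, the fit was run with each array left out in turn, a block for the replicate number, renewed quantile normalisation, median centring, rows above the median row mean, a trended and robust prior, array weights, and named rows alone. Promoter letters came from RefSeq (GRCm38.p6).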

Additional observations from a re-analysis of the deposited data

How the results depend on the processing

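Over 56 named genes and up to 13 alternatives, 639 of 726 values stayed on the same side of the threshold, 67 were no longer past it, 20 were newly past it and none changed direction while past it. Of the 12 calls among members 4 (Hk2, Slc16a3, Bnip3 and Hif1a) stayed past it in all 13. With 1 array left out, members lower in the knockout numbered 4 to 8 and members higher 0 to 1 by limma (3 to 4 higher at an unadjusted p under 0.05), and all rows called numbered 544 to 786 lower and 763 to 1113 higher. The labels link same-numbered arrays of the groups by the number alone. Correlations of their deviations over all rows (0.0249, 0.00669 and 0.0539) do not settle whether they shared a culture or batch. With the replicate number as a block 1 member was higher, since Arnt missed the threshold (limma adjusted p = 0.0657), and 9 were lower, with Slc16a1 (0.0763) and Pfkp (0.0503) lost and Aldoc (0.0485) gained, among 1027 rows higher and 718 lower. Pgm1 (0.0543), Pgm2 (0.0719) and Epas1 (0.0601) also missed it. The trended and robust prior called 1626 rows lower. Fewer arrays leave fewer degrees of freedom, and the cause of these moves was not tested. The number of arrays limits the precision, and Hk3 and Pfkfb4 read under the median level, where signal over background is unknown.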
